A study of Mus musculus with 2 samples.

Results

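The genes described here are a module of type I interferon response genes, 38 in all, measured in single cells sorted from the mouse thymus. They were chosen by symbol from a written list of genes known to be switched on by type I interferon, by a rule that reads no level. Of the 38, 37 had a row among the 32285 gene rows of the counts. Mx1 had none and is not described. All 37 had at least 30 UMIs, that is, transcript molecules told apart by their barcode tags, over the cells that were kept, so none was lost to the filter on low counts.

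The cells came from the thymus of adult C57BL/6 mice, were dissociated enzymatically and were sorted by flow cytometry on surface CD64, an IgG Fc receptor carried by macrophages and many monocytes. No treatment, genotype or age beyond adult is given, and neither is the number of mice pooled. There were 2 libraries made with 10x Genomics 3′ chemistry, from 2021 and 2024, which form 1 group. Only the 2021 library is paired with gene names here, so the 2024 library (2815 barcodes) gives no gene values, shared barcodes between the libraries were not counted, and no difference between cells below has a replicate check.

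The labels call the cells macrophages, and the transcripts showed a mixture. The 2021 library held 3214 barcodes with 502 to 18653 UMIs each, of which 3188 passed the filters and 3185 were kept after removal of 3 called doublets. Macrophage-like cells were 378 of the 3185 (11.9%), beside 819 conventional dendritic cell (DC)-like, 487 neutrophil-like, 469 monocyte-like, 382 T lineage-like, 295 natural killer (NK) and innate lymphoid cell (ILC)-like and 211 B lineage or plasma cell-like cells. Fcgr1, which encodes CD64, was at 184 (132 to 249.7) CPM and 125 (103 to 151) CPM in the 2 macrophage-like clusters, 72 (56.3 to 90.7) CPM in monocyte-like cells and 0 in a DC-like cluster led by Ccr7 and Fscn1. CPM here means UMIs per 1e+06 UMIs of the same cells. Bracketed ranges are 95% intervals, exact Poisson for levels and exact binomial for shares of cells, and they cover counting error only.

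Type I interferons bind a receptor of the chains Ifnar1 and Ifnar2, which activates the kinases Jak1 and Tyk2 and through them a transcription factor complex. That complex binds the interferon-stimulated response element, a repeat of the letters GAAA, in the promoters of response genes. Many of the products block viruses at entry, RNA replication or budding, others sense foreign RNA or DNA, and some, such as Usp18, dampen the signal. In the thymus, a steady production of type I interferon by epithelial cells has been described in the absence of infection.

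The response element is shown first because the rule that chose the members reads no sequence. The letters GAAA, any 2 bases and GAAA again were searched on both strands of RefSeq promoters (GRCm38.p6, 250 bases before to 50 bases after the start). The members with a promoter entry numbered 30, and 18 of them (60%) held the letters, against 1079 of 27018 genes (3.99%). No entry was found for Usp18, Ifi204, Ifi27l2a, Mx1, Zbp1, Rtp4, Dhx58 and Parp14. In 15 of the 18 a match lay before the start, and in Ifih1, Ddx58 and Ifitm3 the match reached past it. A match describes the letters only and does not show binding.

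The first 3 stretches are printed to show the element in antiviral members described below, and the last 4 to compare members of the PYHIN family of DNA-sensing proteins, whose genes lie near one another on chromosome 1. Each is read 5′ to 3′ on the strand of its gene, with the match in capitals. They lie at chr4:156200861-156200910 (Isg15), chr19:34640784-34640833 (Ifit1), chr12:26456543-26456592 (Rsad2), chr1:173491329-173491378 (Ifi206), chr1:173599316-173599365 (Ifi213), chr1:174031860-174031909 (Ifi205) and chr1:173913054-173913103 (Ifi211). In Ifit1 and Rsad2 the letters are on the opposite strand and read as its reverse complement.
Isg15: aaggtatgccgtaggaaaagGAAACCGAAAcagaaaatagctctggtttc
Ifit1: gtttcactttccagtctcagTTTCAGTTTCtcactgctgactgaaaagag
Rsad2: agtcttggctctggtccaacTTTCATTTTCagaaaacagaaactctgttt
Ifi206: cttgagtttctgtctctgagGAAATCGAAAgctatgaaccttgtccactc
Ifi213: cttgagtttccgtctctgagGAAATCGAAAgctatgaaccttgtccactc
Ifi205: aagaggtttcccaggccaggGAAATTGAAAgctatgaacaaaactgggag
Ifi211: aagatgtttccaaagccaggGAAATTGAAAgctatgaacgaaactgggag
Isg15 held 3 overlapping matches and Ifit1 held 2. The stretches of Ifi206 and Ifi213 differed at 1 of 50 bases and those of Ifi205 and Ifi211 at 4 of 50, while those of Ifi206 and Ifi205 differed at 25 of 50. The stretches are promoter windows, and whether reads of related PYHIN genes were divided between them by the counting was not tested.

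In sum, the 37 members gave 73878 of 8505574 UMIs in kept cells. The median cell held 13 of them and 303 cells (9.51%) held none. The sum was dominated by 2 genes. Ifi27l2a, which encodes a small hydrophobic membrane protein, gave 33.1% of the module's UMIs, and Ifitm3, which encodes a membrane protein that blocks viral entry from endosomes, gave 31.8%. Bst2 (tetherin, which holds budding virus at the cell surface) followed with 6.56%, Isg15 (a ubiquitin-like protein joined to other proteins) with 4.67% and Irf7 (the transcription factor that amplifies interferon production) with 2.56%. The other 32 members each gave between 0.153% and 1.88%.

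Cells were grouped without the members and without 117 other interferon genes, so that the groups were not built from the genes described. The module was present at high levels in 3 kinds of myeloid cell. By class it stood at 14884 CPM (14646 to 15126) in monocyte-like, 14185 CPM (13967 to 14405) in neutrophil-like and 13454 CPM (13238 to 13673) in macrophage-like cells. It was lower in conventional DC-like cells, at 7019.7 CPM (6923 to 7118), and in B lineage or plasma cell-like cells, at 4633 CPM (4437 to 4835). The lowest class levels were those of T lineage-like cells, at 2638 CPM (2525 to 2755), NK and ILC-like cells, at 1699.9 CPM (1559 to 1849.8), and mast or basophil-like cells, at 794 CPM (363 to 1508) from 11 cells and 9 module UMIs. Which of the 3 myeloid classes was highest changed with the weighting: with equal weight per cell the neutrophil-like value was 16516 CPM and the monocyte-like value 14603 CPM.

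The classes hid larger differences between their clusters. The Retnlg Cxcr2 neutrophil-like cluster (243 cells) had the highest sum, 21312 CPM (20824 to 21807). The Ccl12 C1qa macrophage-like cluster (303 cells) followed with 15597 CPM (15336 to 15861), the monocyte-like cluster (469 cells) with 14884 CPM (14646 to 15126) and the Ltf Camp neutrophil-like cluster (244 cells) with 11158 CPM (10928 to 11392). All 4 intervals were apart from one another.

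A middle range held 6 clusters. The Cd209a Mgl2 conventional DC-like cluster (702 cells) stood at 7301 CPM (7196 to 7408). Below it, the Trac Rag1 T lineage-like cluster (244 cells) was at 5255 CPM (4982 to 5540.0), the Spic Vcam1 macrophage-like cluster (75 cells) at 5059.7 CPM (4769 to 5364), the Ccr7 Fscn1 conventional DC-like cluster (117 cells) at 4930.1 CPM (4697 to 5172), the B lineage or plasma cell-like cluster (211 cells) at 4633 CPM (4437 to 4835) and an unnamed dividing cluster led by Hist1h2ae and Birc5 (120 cells) at 4389.6 CPM (4238 to 4545). Among these 5, each neighbouring pair in the order had overlapping intervals.

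The lowest sums were in the NK and ILC-like cluster, at 1699.9 CPM (1559 to 1849.8), and in the Dntt Top2a T lineage-like cluster of immature, dividing thymocytes (138 cells), at 1291 CPM (1194 to 1393). An unnamed cluster of 13 cells led by the granule protease genes Elane and Prtn3 was at 979.8 CPM (819 to 1163). The NK and ILC-like position depended on Ifi27l2a, Ifitm3 and Bst2, which gave 27.3% of its module UMIs. Over the other 34 members this cluster was at 1235 CPM (1116 to 1364). B lineage or plasma cell-like cells were then at 1369 CPM (1263 to 1481), the dividing cluster at 1028 CPM (955 to 1104) and Dntt Top2a cells at 474 CPM (416 to 538). The plot of the summed module by cluster shows the order and how much of each bar is Ifi27l2a and Ifitm3.

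**Figure D1:**
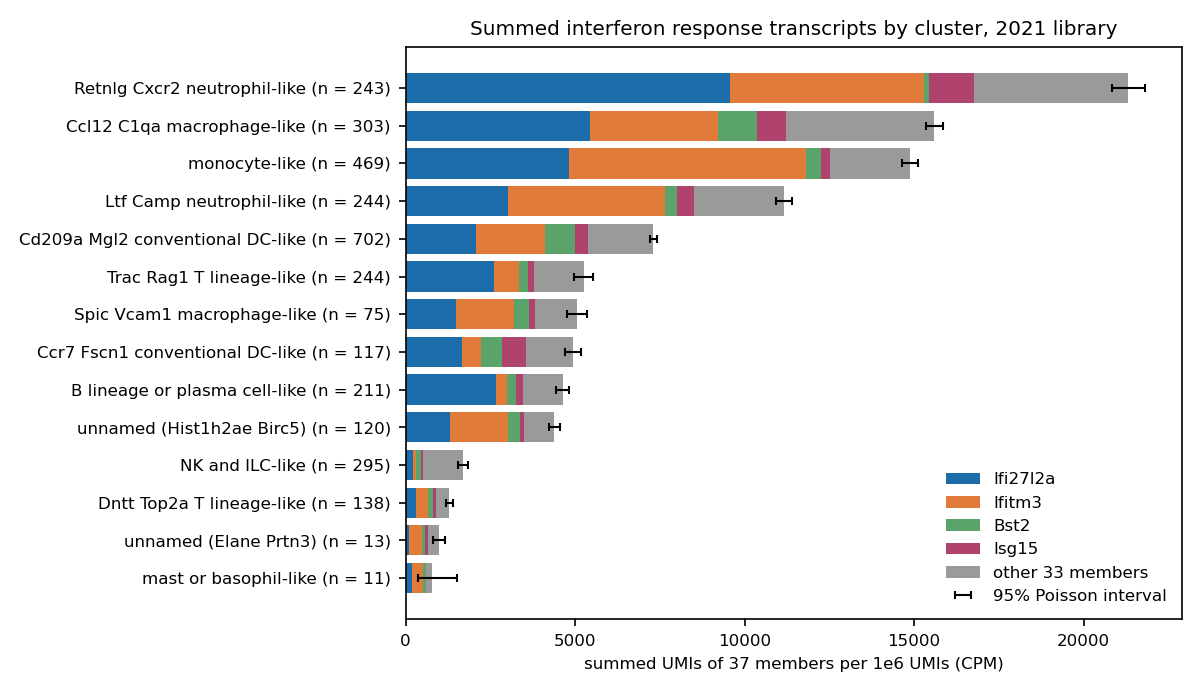
Summed UMIs of the 37 members per 1e+06 UMIs (horizontal axis, CPM) in each of 14 clusters of the 2021 library, with the number of cells in brackets. Colours split the bar by gene and the whiskers are 95% Poisson intervals of the sum; the Retnlg Cxcr2 neutrophil-like bar reaches 21312 and the Dntt Top2a T lineage-like bar 1291.

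Neutrophil levels rest on unusual totals. S100a8 and S100a9, the calprotectin genes, took 33.6% of the UMIs of the Retnlg Cxcr2 cluster and 38.8% of those of the Ltf Camp cluster, against 0.033% in the Ccl12 C1qa macrophage-like and 0.115% in the monocyte-like cluster. With these 2 genes out of the totals, the Retnlg Cxcr2 cluster stood at 32088 and the Ltf Camp cluster at 18241 module UMIs per 1e+06, the latter then above the macrophage-like (15602) and monocyte-like (14902) clusters. The median of all genes tested was shifted by -0.58 and -0.55 (log2) in the 2 neutrophil-like clusters against all other cells, and by 0.02 in the Ccl12 C1qa macrophage-like cluster.

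The same S100a8 and S100a9 transcripts give a measure of RNA from other cells, free or in mixed droplets, since lymphocytes do not make them. They stood at 0.140% of the level of the Ltf Camp cluster in NK and ILC-like, 0.142% in B lineage or plasma cell-like and 0.332% in Trac Rag1 T lineage-like cells. They were higher in Spic Vcam1 macrophages (3.27%) and Ccr7 Fscn1 DCs (1.63%). Other markers gave larger shares in the same lymphoid clusters. C1qa, C1qb and C1qc together stood at 1.12%, 2.74% and 2.48% of the level of the Spic Vcam1 cluster in NK and ILC-like, B lineage or plasma cell-like and Trac Rag1 cells. Lyz2 stood at 0.836%, 3.79% and 6.61% of the monocyte-like level there. The part of free RNA or mixed droplets in the module levels was not tested.

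Next, each member was compared between a cluster and all other kept cells, with 10 CPM added to both levels. A member is called higher or lower here at a log2 ratio of at least 1 in size, and no test was possible with 1 library. The added 10 CPM makes the ratios of low genes smaller. In the Ccl12 C1qa macrophage-like cluster 23 of 37 members were at least 2-fold higher and none was lower, where 4.06% of the 9888 genes tested were higher and 3.38% lower. The median log2 ratio of the members was 1.14, against 0.02 over all genes. In the Retnlg Cxcr2 neutrophil-like cluster 18 of 37 were higher (6.85% of genes tested) and 5 were lower (29.1%). The members' median was 0.97 against -0.58 over all genes, and with ratios centred on that median 24 members were higher (14.5% of genes) and 3 lower (13.1%).

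Elsewhere fewer members were raised, with the largest count in the Ltf Camp neutrophil-like cluster, where 16.2% of members were higher. The monocyte-like cluster had 3 members higher (2.7% of genes tested), which were Ifitm3, Ifi204 and Ifi211, and 2 lower (5.78%). The Ltf Camp neutrophil-like cluster had 6 higher (4.22%) and 9 lower (24.9%), which became 12 higher (9.17%) and 3 lower (9.99%) after centring. The Cd209a Mgl2 DC-like cluster had 1 higher (1.63%), Ifi44, and 1 lower (7.06%), Oas3. The Ccr7 Fscn1 DC-like cluster had 2 higher (5.52%), Usp18 and Phf11b, and 13 lower (15.9%).

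Lower calls prevailed in the lymphoid clusters, the dividing cluster and the Spic Vcam1 macrophages. The Dntt Top2a T lineage-like cluster had 33 of 37 members lower (11.2% of genes tested), the unnamed dividing cluster 20 (6.05%), the NK and ILC-like cluster 19 (12.5%), the B lineage or plasma cell-like cluster 18 (11.8%), the Spic Vcam1 macrophage-like cluster 16 (5.63%) and the Trac Rag1 T lineage-like cluster 10 (7.77%). The Spic Vcam1 count fell to 8 when only cells with at least 1000 UMIs were used. The only members higher in any of these 6 clusters were Ifi206 in the B lineage or plasma cell-like (2.73%) and Trac Rag1 T lineage-like (12%) clusters and Ifi205 in the dividing cluster (3.27%).

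On total UMIs most members were highest in 1 of 2 clusters. Among the 12 clusters of at least 50 cells, 17 members had their highest level in the Ccl12 C1qa macrophage-like cluster and 15 in the Retnlg Cxcr2 neutrophil-like cluster. The remaining 5 were Ifitm3 (monocyte-like), Usp18 and Phf11b (Ccr7 Fscn1 DC-like), Ifi206 (Trac Rag1 T lineage-like) and Ifi205 (the dividing cluster). With S100a8 and S100a9 out of the totals the split turned, to 10 members highest in the Ccl12 C1qa macrophages and 23 in the Retnlg Cxcr2 neutrophils. The highest cluster changed for 9 members (Oas1a, Usp18, Ifi204, Zbp1, Trim30a, Slfn5, Ifih1, Dhx58 and Ifitm3) and stayed for 28. The heat map of each member by cluster shows the division by role.

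**Figure D2:**
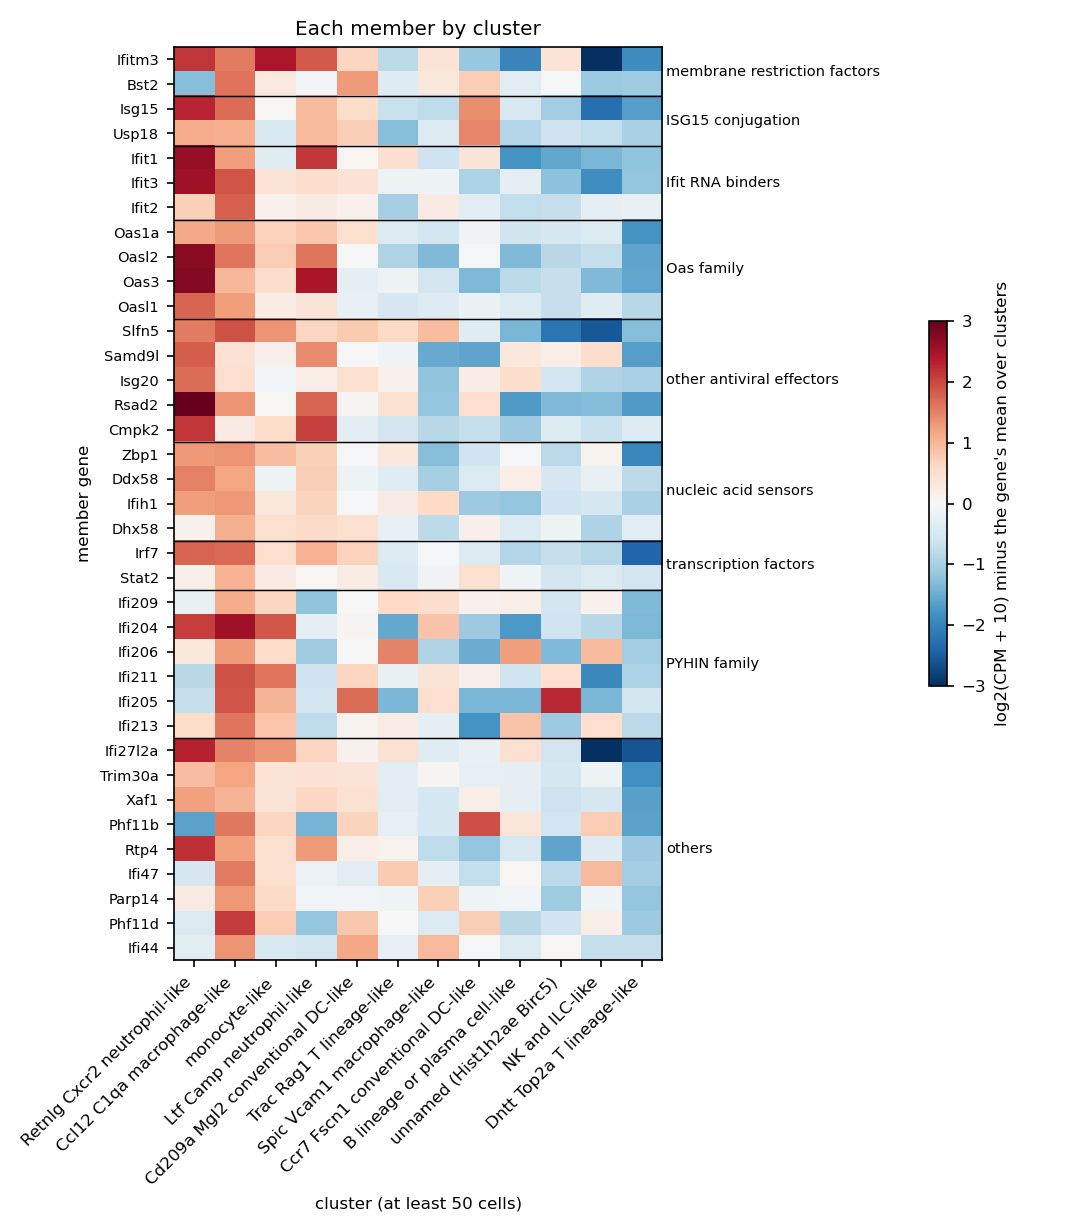
Each member (rows, grouped by role) in the 12 clusters of at least 50 cells (columns, ordered by summed module), as log2(CPM + 10) minus the gene's mean over the clusters. On total UMIs the Ccl12 C1qa macrophage-like column is the highest for 17 members and the Retnlg Cxcr2 neutrophil-like column for 15 (10 and 23 with S100a8 and S100a9 out of the totals), among them Ifit1, Ifit3, Oas3 and Rsad2.

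Ifitm3 and Bst2, the membrane restriction factors, were distributed differently from each other. On total UMIs Ifitm3 was highest in monocyte-like cells, at 7006 CPM (6843 to 7172), where after thinning each cell to 2000 UMIs it was detected in 99.1% (97 to 99.9%) of cells. It was at 5726 CPM (5474 to 5985) in Retnlg Cxcr2 neutrophils, 4638 CPM (4490.5 to 4789.8) in Ltf Camp neutrophils and 3793 CPM (3665 to 3924) in Ccl12 C1qa macrophages, and at 94.8 CPM (64 to 135) in NK and ILC-like cells. With S100a8 and S100a9 out of the totals this order turned, with 8621 (8243 to 9012) per 1e+06 in Retnlg Cxcr2 neutrophils, 7582 (7341 to 7829.9) in Ltf Camp neutrophils and 7014 (6851 to 7180.1) in monocytes. Bst2 was highest in Ccl12 C1qa macrophages, at 1129 CPM (1059 to 1201), and next in Cd209a Mgl2 DCs, at 877 CPM (840.5 to 914), and was the most abundant member to be low in Retnlg Cxcr2 neutrophils, at 141 CPM (104 to 187). Bst2 remained lower there after centring.

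Isg15 and Usp18, the conjugate and the protease that removes it, were both high in Retnlg Cxcr2 neutrophils, Ccl12 C1qa macrophages and Ccr7 Fscn1 DCs. Isg15 stood at 1344 CPM (1224 to 1473) in Retnlg Cxcr2 neutrophils, 866 CPM (806 to 930.3) in Ccl12 C1qa macrophages and 717 CPM (629 to 813) in Ccr7 Fscn1 DCs. The Cd209a Mgl2 DCs, at 393 CPM (369 to 418), and monocytes, at 271 CPM (239.7 to 305), were lower. In Spic Vcam1 macrophages Isg15 and Usp18 together were at 175 CPM (125 to 239). After thinning, Isg15 was detected in 35.2% of 91 Ccr7 Fscn1 DCs, with a variance of 11.5 times its mean. Usp18 was highest in Ccr7 Fscn1 DCs, at 109 CPM (76.8 to 150.4), with overlapping intervals in Retnlg Cxcr2 neutrophils (82.2 CPM (54.6 to 119)) and Ccl12 C1qa macrophages (81.4 CPM (63.5 to 103)). In monocytes it was at 21 CPM (13 to 32.1). Without S100a8 and S100a9 in the totals Usp18 was highest in Retnlg Cxcr2 neutrophils, at 124 (82.2 to 179) per 1e+06.

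The Ifit proteins bind foreign RNA. Ifit1 was at 299 CPM (244 to 363) in Retnlg Cxcr2 and 207 CPM (177 to 241) in Ltf Camp neutrophils, against 109 CPM (88.1 to 133) in Ccl12 C1qa macrophages and 29 CPM (19.4 to 41.6) in monocytes. Ifit3 was at 202 CPM (158 to 256) in Retnlg Cxcr2 neutrophils but 42.4 CPM (29.3 to 59.2) in Ltf Camp neutrophils. Ifit2 ran against this order, with 85.9 CPM (67.6 to 108) in Ccl12 C1qa macrophages and 35.2 CPM (18.2 to 61.5) in Retnlg Cxcr2 neutrophils.

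The Oas family makes or resembles the enzymes that activate RNase L on double-stranded RNA. Summed over its 4 members it stood at 745 CPM (657 to 843) in Retnlg Cxcr2 neutrophils, 454 CPM (408 to 503) in Ltf Camp neutrophils, 377 CPM (337 to 420.0) in Ccl12 C1qa macrophages and 217 CPM (189 to 248) in monocytes. Oas3 was at 264 CPM (212 to 325) and 211 CPM (180.1 to 245) in the 2 neutrophil-like clusters and at 71 CPM (54.5 to 91.1) in Ccl12 C1qa macrophages. Oasl2 was at 296 CPM (241 to 360.2) in Retnlg Cxcr2 neutrophils and 133 CPM (109.8 to 159) in the macrophages, and Oasl1 at 73.4 and 49.3 CPM, while Oas1a was at 112 and 124 CPM with overlapping intervals.

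Of the 5 other antiviral effectors, 4 were highest in Retnlg Cxcr2 neutrophils under both totals. Rsad2, whose product viperin makes a chain-ending nucleotide, was at 244 CPM (194 to 302) in Retnlg Cxcr2 neutrophils, 98.4 CPM (77.9 to 123) in Ltf Camp neutrophils and 72.2 CPM (55.5 to 92.4) in Ccl12 C1qa macrophages, and had no UMI in B lineage or plasma cell-like or Dntt Top2a T lineage-like cells. Cmpk2, a nucleotide kinase gene next to Rsad2 on chromosome 12, was at 106 CPM (74 to 146) and 97.2 CPM (76.8 to 121) in the 2 neutrophil-like clusters and at 20.6 CPM (12.2 to 32.6) in the macrophages. Samd9l and the exonuclease gene Isg20 were highest in Retnlg Cxcr2 neutrophils, at 317 CPM (260.0 to 383) and 164 CPM (124 to 213). Slfn5 had overlapping intervals, with 276 CPM (242 to 313) in Ccl12 C1qa macrophages and 214 CPM (168 to 269) in Retnlg Cxcr2 neutrophils, and stood at 323 per 1e+06 in these neutrophils with S100a8 and S100a9 out of the totals, against 276 in the macrophages. It was at 3.16 CPM (0.08 to 17.6) in NK and ILC-like cells.

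For all 4 sensors of nucleic acids the intervals of these 2 clusters overlapped on total UMIs. Zbp1, which recognises left-handed double helices, was at 245 CPM (213 to 280.4) in Ccl12 C1qa macrophages and 238 CPM (189 to 295) in Retnlg Cxcr2 neutrophils. With S100a8 and S100a9 out of the totals the Zbp1 intervals were apart, at 245 (214 to 280.5) and 358 (284 to 445) per 1e+06. Ddx58 (RIG-I) was at 75.6 and 96.8 CPM and Ifih1 at 57.3 and 55.8 CPM in the same clusters, each with overlapping intervals. Dhx58, their regulator, had overlapping intervals as well but few UMIs, at 42.4 CPM (29.9 to 58.4) in the macrophages and 17.6 CPM (6.46 to 38.3) in these neutrophils. In lymphoid cells Zbp1 was the sensor with the most UMIs, at 114 CPM in Trac Rag1 T lineage-like, 98 CPM in NK and ILC-like and 85.8 CPM in B lineage or plasma cell-like cells.

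Of the transcription factors, Irf7 was at 514 CPM (440.3 to 596) in Retnlg Cxcr2 neutrophils and 494 CPM (448 to 543) in Ccl12 C1qa macrophages, above 310.3 CPM (273 to 351) in Ltf Camp neutrophils, 239 CPM (221 to 259) in Cd209a Mgl2 DCs and 210.0 CPM (183 to 240.4) in monocytes. With S100a8 and S100a9 out of the totals Ltf Camp neutrophils were at 507 (446 to 574) per 1e+06, beside 494 (448 to 543) in the macrophages. Stat2 was low throughout, between 13.7 and 61.9 CPM over the 12 clusters of at least 50 cells.

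The PYHIN family followed another order. Summed over 6 members and on total UMIs it was highest in Ccl12 C1qa macrophages, at 861 CPM (800.1 to 924), then in monocytes, at 544 CPM (499 to 592). It was lowest of the 12 clusters at 103 CPM (82.4 to 128) in Ltf Camp neutrophils and 78.3 CPM (56 to 107) in Dntt Top2a thymocytes. Without the highest doublet scores these lowest values were 54.4 CPM (38.7 to 74.3) and 15.5 CPM (5.67 to 33.6). With all kept cells the family made up 14.1% of the module's UMIs in NK and ILC-like cells and 0.927% in Ltf Camp neutrophils. Its members differed in their distribution. Ifi204 was at 225 CPM (194 to 258) in Ccl12 C1qa macrophages, 158 CPM (119 to 207) in Retnlg Cxcr2 neutrophils (239 per 1e+06 with S100a8 and S100a9 out of the totals) and 136 CPM (114 to 161) in monocytes, with 2.2 CPM (0.0557 to 12.3) in B lineage or plasma cell-like cells. It was not high in all myeloid cells. After thinning it was detected in 30.3% of Ccl12 C1qa macrophages and 23.4% of monocytes, but 3.87% of Ltf Camp neutrophils and 4.83% of Cd209a Mgl2 DCs.

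Ifi206, in contrast, was at 137 CPM (95.9 to 189.5) in Trac Rag1 T lineage-like, 114 CPM (85.5 to 150.1) in B lineage or plasma cell-like and 91.6 CPM (61.4 to 132) in NK and ILC-like cells, beside 117 CPM (95.3 to 142) in Ccl12 C1qa macrophages. Without the 6% of cells with the highest doublet scores these lymphoid levels were 144, 113 and 85.3 CPM. Ifi213, whose printed stretch differs from that of Ifi206 at 1 base, was at 70.4 CPM in B lineage or plasma cell-like and 53.7 CPM in NK and ILC-like cells and at 126 CPM in the macrophages. Ifi205 and Ifi211, the other similar pair, had few or no lymphoid UMIs: Ifi205 had none in NK and ILC-like, B lineage or plasma cell-like or Trac Rag1 T lineage-like cells, and Ifi211 none in NK and ILC-like cells. Ifi205 was highest in the dividing cluster, at 115 CPM (91.6 to 143), and was at 85.9 CPM (67.6 to 108) in Ccl12 C1qa macrophages and 73.5 CPM (63.3 to 84.9) in Cd209a Mgl2 DCs. Ifi209 had UMIs in all 12 clusters of at least 50 cells, between 23.5 and 172 CPM. The annotation places Ifi211 over Mndal on the same strand, so reads of these 2 genes may be divided.

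Among the remaining members, Ifi27l2a was at 9558 CPM (9233 to 9892) in Retnlg Cxcr2 neutrophils, 5435 CPM (5281 to 5592) in Ccl12 C1qa macrophages, 4814 CPM (4679 to 4952) in monocytes and 3019.5 CPM (2900.5 to 3142) in Ltf Camp neutrophils. With S100a8 and S100a9 out of the totals Ltf Camp neutrophils were at 4936 (4741 to 5137) and monocytes at 4819.7 (4685 to 4958) per 1e+06. Among lymphocytes it was at 2665 CPM (2517 to 2819.7) in B lineage or plasma cell-like cells and 212 CPM (164 to 269) in NK and ILC-like cells. Rtp4, Xaf1 and the ubiquitin ligase gene Trim30a were broad, with Rtp4 and Xaf1 highest in Retnlg Cxcr2 neutrophils (276 and 191 CPM) and Trim30a in Ccl12 C1qa macrophages (314 CPM), which turned to 393 per 1e+06 in the neutrophils against 314 with S100a8 and S100a9 out of the totals. Rtp4 overlaps Gm45338 on its own strand and Masp1 on the other in the annotation.

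Phf11b and Phf11d, neighbouring PHD-finger genes on chromosome 14, were low in neutrophils. Phf11b was at 242 CPM (192 to 300.1) in Ccr7 Fscn1 DCs and 188 CPM (160.3 to 219) in Ccl12 C1qa macrophages, against 11.7 CPM (3.2 to 30.1) and 15 CPM (7.73 to 26.1) in the 2 neutrophil-like clusters. Phf11d was at 99.7 CPM (79.8 to 123) in these macrophages. Parp14 (119 CPM), Ifi44 (32.1 CPM) and the guanosine triphosphatase gene Ifi47 (156 CPM) were also highest there, and Ifi47 was at 101 CPM in NK and ILC-like cells. Ifi47 shares its strand with Olfr56 in the annotation.

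The 2 macrophage-like clusters were then set against each other. The summed module was 3.08-fold (2.90 to 3.28) higher in the Ccl12 C1qa than in the Spic Vcam1 cluster, and 36 of the 37 members had at least 30 UMIs in both together. Of these, 31 were at least 2-fold higher and none was lower, where 6.18% of 4450 genes were higher and 9.71% lower. The members' median log2 ratio was 1.73, against -0.07 over all genes. The 5 that did not pass were Ifi209 (0.57), Ifi44 (0.38), Slfn5 (0.98), Ifih1 (0.70), Parp14 (0.58). Zbp1 differed by 2.62 (log2), with 31.4 CPM (12.6 to 64.8) in Spic Vcam1 macrophages, Isg15 by 2.43, with 153 CPM (106 to 213), and Ifitm3 by 1.14, with 1715 CPM (1547 to 1896). Rsad2 rested on 1 UMI in the Spic Vcam1 cluster and 63 in the other.

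Against all other cells, Spic Vcam1 macrophages were led by Spic, Vcam1, Slc40a1 and Mertk, genes of iron recycling and dead-cell uptake, and Ccl12 C1qa macrophages by Ccl12, Pf4, C1qa and Cxcl9. C1q does not set these clusters apart by its presence. C1qa, C1qb and C1qc together were at 10752 CPM in the Spic Vcam1 cluster and 6524 CPM in the Ccl12 C1qa cluster. S100a8 and S100a9 together were at 12687 CPM in the Spic Vcam1 cluster and 330.0 CPM in the Ccl12 C1qa cluster, and the part of this in the difference was not tested. The ratio was 3.47 without the cells of highest doublet score and 2.83 in deeper cells. The plot of members in paired clusters shows nearly every member above the diagonal.

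**Figure D3:**
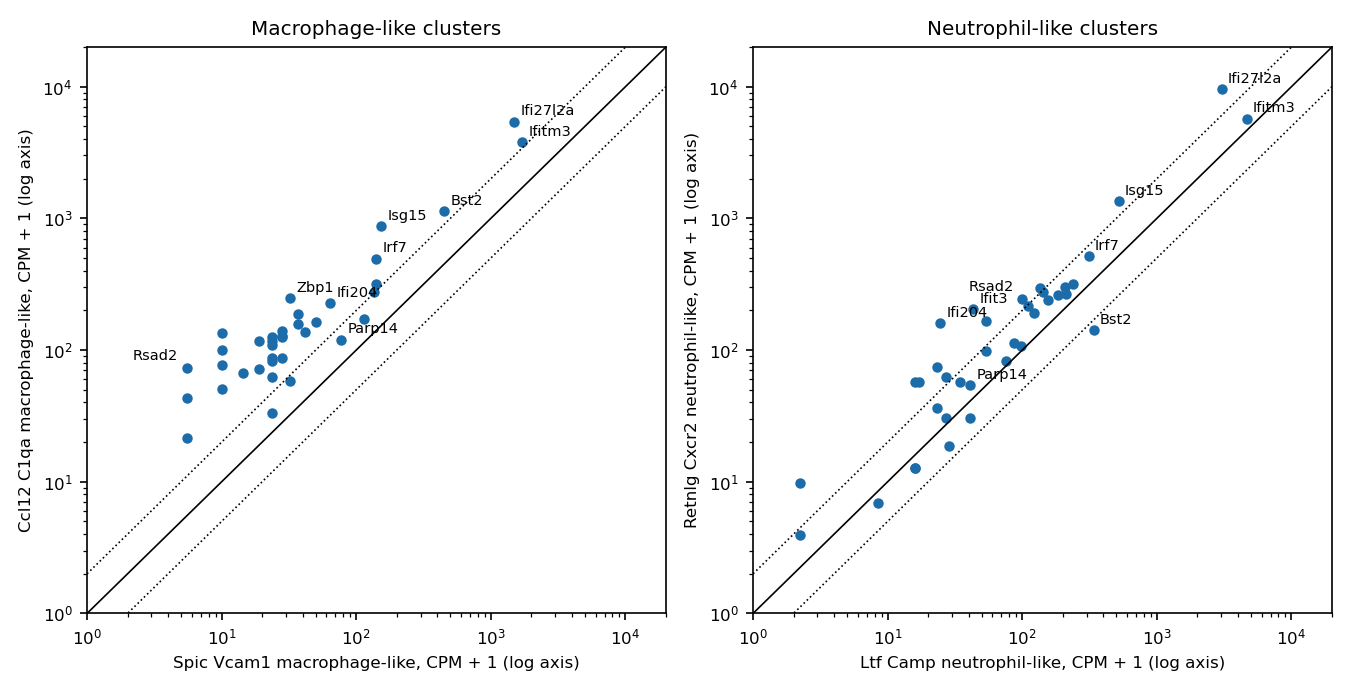
Level of each member in 2 macrophage-like clusters (left) and 2 neutrophil-like clusters (right), as CPM + 1 on log axes, 1 point per member. The solid line marks equal levels and the dotted lines a 2-fold difference; on the left 31 members were at least 2-fold higher in the Ccl12 C1qa cluster, and on the right Bst2 lies below the diagonal.

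The neutrophil-like clusters also differed, less evenly. The module was 1.91-fold (1.85 to 1.97) higher in the Retnlg Cxcr2 than in the Ltf Camp cluster and 1.48-fold with equal weight per cell. Of 31 members with at least 30 UMIs in both together, 10 were higher (14.4% of 3022 genes) and 1, Bst2, was lower (10.1%). Ifit3 (2.02 log2), Ifi204 (2.32), Ifi27l2a (1.66) and Isg15 (1.35) were among the 10, while Cmpk2 (0.11), Oas3 (0.31) and Ifitm3 (0.30) were not. Finer clustering gave 3 neutrophil-like clusters in which the module was at 8294 CPM (8019 to 8575) in cells led by Camp and Ngp, genes of secondary granules made before release from marrow, 16034 CPM (15692 to 16381) in cells led by Ly6g, Ltf and Mmp9, and 21392 CPM (20765 to 22034) in cells led by Retnlg and Cxcr2. Their median depths fell in the same order, from 5831 to 1928 and 1018 UMIs, and the part of depth was not tested.

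Monocytes and Ccl12 C1qa macrophages had nearly equal sums, with a ratio of 1.05 (1.02 to 1.07), while single members differed. The macrophages had 13 of 37 members at least 2-fold higher (5.81% of 5698 genes) and none lower (2.65%). Ifi44, Ifit2, Isg15 and Ifit1 led these, at 1.81, 1.68, 1.64 and 1.61 (log2), whereas Ifitm3 was at -0.88. Without the 3 members with the most UMIs, the sum of the other 34 was 5240 CPM in the macrophages, 5887 CPM in Retnlg Cxcr2 neutrophils and 2626 CPM in monocytes. At the finer resolution, monocytes led by F13a1 and Fn1, of the classical kind, were at 15579 CPM (15314 to 15847) and those led by Ace and Cd300e, of the patrolling kind, at 10080 CPM (9586 to 10594).

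On total UMIs the module was 1.43-fold (1.39 to 1.47) higher in Retnlg Cxcr2 neutrophils than in monocytes. With S100a8 and S100a9 out of the totals it stood at 32088 CPM in these neutrophils and 14902 CPM in monocytes. On total UMIs 14 of 36 members were at least 2-fold higher in the neutrophils (9.95% of 4373 genes) and 6 lower (39.6%). The members' median log2 ratio was 0.56, against -0.67 over all genes, and these counts and the ratios below are not centred on that median. Ifit1 (2.99 log2), Rsad2 (2.94) and Isg15 (2.27) were furthest up, and Ifi211 (-2.43) and Phf11b (-2.24) furthest down.

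The 2 DC-like clusters were compared in the same way. The module was 1.48-fold (1.41 to 1.56) higher in the Cd209a Mgl2 than in the Ccr7 Fscn1 cluster, which has the genes of mature, migratory DCs. Of 36 members, 13 were at least 2-fold higher (16.2% of 6527 genes) and 1, Phf11b, was lower (7.57%). Ifitm3 (1.79 log2) and Samd9l (1.59) were higher in the Cd209a Mgl2 cluster, and Ifi205 had 185 UMIs there and none in the Ccr7 Fscn1 cluster. Phf11b (-1.26), Isg15 (-0.85) and Usp18 (-0.73) stood on the other side. Finer clustering of the Cd209a DCs separated cells led by Cd209a and Ckb, at 7927 CPM (7790 to 8065), from cells led by Cd209e and Cd209d, at 2850 CPM (2703 to 3002). An unnamed cluster of 50 cells led by Ccl17 and Plet1 stood above both at 9633 CPM (9199 to 10083).

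The T lineage values must be read with the doublet scores. Cells whose Scrublet scores were in the highest 6% numbered 191 over the library. In the Trac Rag1 cluster 15 such cells held 40.7% of the module's UMIs, at 11926 CPM (10961 to 12954) and with the MHC class II chain gene Cd74 at 14151 CPM. The other 229 cells were at 3796 CPM (3540 to 4065) with Cd74 at 1441 CPM. In the Dntt Top2a cluster 17 such cells held 71.9% of the module's UMIs, at 3877 CPM (3535 to 4242), and the other 121 were at 476 CPM (410 to 550). In NK and ILC-like cells 6 such cells held 18.8%, at 8692 CPM (7080 to 10562), and the other 289 were at 1433 CPM (1302 to 1574). In the unnamed dividing cluster 11 such cells held 21.9%, at 10047 CPM (9314 to 10822), and the other 109 were at 3790 CPM (3642 to 3942). Such cells also held 20.6% in the Spic Vcam1 macrophage-like, 17.4% in the B lineage or plasma cell-like and 16.3% in the Ccr7 Fscn1 DC-like cluster.

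With or without these cells, Trac Rag1 cells lay above Dntt Top2a cells, 4.07-fold (3.71 to 4.47) with them and 7.97-fold without. After their removal Cd74 was at 1441 CPM in Trac Rag1 and 121 CPM in Dntt Top2a cells. Lyz2, which was highest in monocytes, was at 366 and 90.1 CPM in the same cells. The part of mixed droplets in the 7.97-fold difference was not tested. The class level of T lineage-like cells fell from 2638 to 1662 CPM without the cells of high score, or to 1457 CPM when cells were also grouped anew. Without them Ifi27l2a stood at 1998 CPM (1813 to 2195) in the Trac Rag1 cluster and 87.6 CPM (60.6 to 122) in the Dntt Top2a cluster, Trim30a at 88.1 CPM (53 to 138) and 5.15 CPM (0.624 to 18.6), and Ifi209 at 83.4 CPM (49.4 to 132) and 5.15 CPM (0.624 to 18.6). At the finer resolution, T lineage-like cells led by Tnfrsf4, Ikzf2 and Ctla4, genes of regulatory and activated T cells, were at 6848 CPM (6383 to 7339) and those led by Rag1 and Cd8b1, genes of double-positive thymocytes, at 3937 CPM (3625 to 4269). These values include the cells of high score.

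The spread of the sum among cells was measured after thinning each cell to 2000 UMIs, which gives each cell the same total and leaves out shallower cells. Before thinning, the module's share in a cell varied with the cell's total UMIs, with r = 0.49 in Trac Rag1 T lineage-like (244 cells), 0.37 in Spic Vcam1 macrophage-like (75 cells), 0.29 in Retnlg Cxcr2 (243 cells) and -0.38 in Ltf Camp (244 cells) neutrophil-like cells, all of 1 library, and thinning does not remove such a relation. Retnlg Cxcr2 neutrophils had the highest median, 45.5 module UMIs, with 20.3 to 67.9 between the 10th and 90th percentiles, but only 42 of 243 cells were deep enough. Ccl12 C1qa macrophages had a median of 32 (8 to 72, 201 cells), monocytes 29 (9.4 to 58, 235 cells) and Ltf Camp neutrophils 20 (7 to 40, 155 cells). No cell of these 4 clusters was without a module UMI, which allows shares of up to 8.41%, 1.82%, 1.56% and 2.35% by the exact binomial interval.

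The share of the module held by few cells differed between clusters. Cd209a Mgl2 DCs had a median of 10 and reached 154 in 1 cell, and 22 of 642 had none. The 10% of cells with the highest sums held 34.6% of this cluster's module UMIs, against 21.2% in Retnlg Cxcr2 neutrophils, 22.7% in monocytes, 24.2% in Ltf Camp neutrophils and 26.1% in Ccl12 C1qa macrophages. The shares in B lineage or plasma cell-like (35.3%), Trac Rag1 T lineage-like (34.5%) and dividing (33.7%) cells were near that of these DCs, and Dntt Top2a thymocytes had 63.5% (38.1% without the highest doublet scores). The Trac Rag1 share rested on 28 cells, with 3 cells in the top 10%. Only 18 of these cells were left without the highest doublet scores, too few for a value. Ccr7 Fscn1 DCs had a median of 4 over 91 cells and the top 10%, 10 cells, held 52.2%. Without the cells of highest doublet score that share was 53.2% over 81 cells, with the clusters' cells otherwise as before.

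The variance of the sum, divided by its mean, was 24.4 in Ccr7 Fscn1 DCs, 17.1 in Cd209a Mgl2 DCs, 17.1 in Ccl12 C1qa macrophages, 12.1 in monocytes, 9.99 in Retnlg Cxcr2 neutrophils and 9.5 in Spic Vcam1 macrophages, where counting alone gives about 1. Among Dntt Top2a thymocytes it was 9.26 with all 84 cells and 1.38 over the 67 without the highest doublet scores, whose median was 1 module UMI and whose highest was 6. Spic Vcam1 macrophages had a median of 8 (1 to 24) and B lineage or plasma cell-like cells 5.5 (1 to 20). Only 8 NK and ILC-like cells had 2000 UMIs, and at 1000 UMIs their median was 1 over 142 cells.

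**Figure D4:**
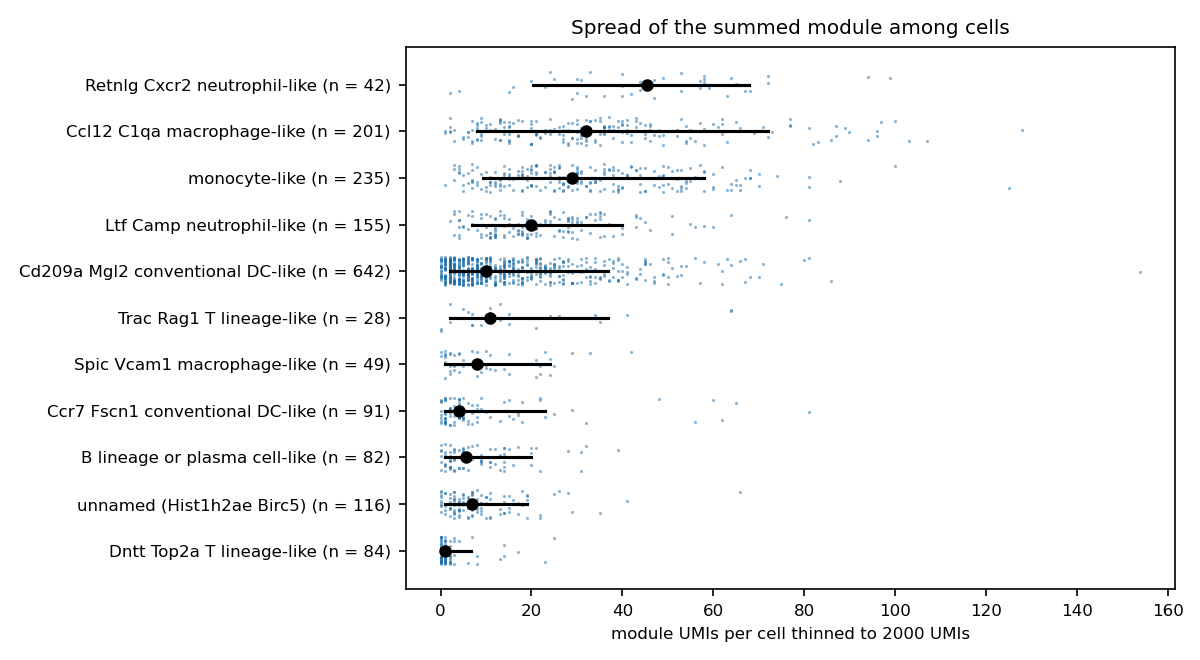
Module UMIs per cell after thinning to 2000 UMIs (horizontal axis) in the 11 clusters with at least 20 cells of that depth. Small points are cells, the large point is the median and the line runs from the 10th to the 90th percentile; DC-like clusters have low medians and cells reaching past 80 UMIs.

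How far members moved together across cells differed between clusters. The variance of the sum exceeded the sum of the single members' variances 3.04-fold in Ccr7 Fscn1 DCs, 2.78-fold in Cd209a Mgl2 DCs, 2.76-fold in Ccl12 C1qa macrophages and 1.5-fold in B lineage or plasma cell-like cells. In Dntt Top2a thymocytes this was 2.66-fold, and 1.07-fold without the highest doublet scores. The order of clusters depended on Ifi27l2a, Ifitm3 and Bst2, the members with the most UMIs. With them left out, the ratio was 2.90 in Ccr7 Fscn1 DCs, below 5.81 in Cd209a Mgl2 DCs and 4.48 in Ccl12 C1qa macrophages. Monocytes were at 4.09, Dntt Top2a thymocytes (all cells) at 2.56 and B lineage or plasma cell-like cells at 1.91. Pearson correlations between the sums of 9 role groups, 36 pairs in each cluster, had a median r of 0.40 in Ccl12 C1qa macrophages (201 cells), 0.43 in Ccr7 Fscn1 DCs (91 cells), 0.39 in Cd209a Mgl2 DCs (642 cells), 0.31 in monocytes (235 cells) and 0.10 in B lineage or plasma cell-like cells (82 cells), where the lowest pair was at -0.10. These describe cells of 1 library that share a fixed total of 2000 UMIs, and are given without a test. The highest pair in Cd209a Mgl2 DCs was ISG15 conjugation with the Ifit genes (r = 0.61), also the highest in monocytes (r = 0.58), and in Ccl12 C1qa macrophages the highest was membrane restriction factors with the ungrouped members (r = 0.60), followed by sensors with the PYHIN family (r = 0.54).

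Single members differed in how closely they followed the rest. Against the sum of the other 36 in Cd209a Mgl2 DCs, Isg15 had the highest r, 0.63, and Irf7 followed with 0.55. In Ccl12 C1qa macrophages Ifitm3 (0.55), Ifi27l2a (0.54), Isg15 (0.51) and Irf7 (0.47) led and Parp14 (-0.05) was lowest. Parp14 had a mean of 0.29 UMIs per thinned cell, and the part of low counts in its r was not tested.

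Over the 250 macrophage-like cells of both clusters, the 12 other genes most like the module sum, among 2393 genes with a UMI in at least 10% of cells, were Plac8 (r = 0.55), Ms4a4c (0.54), Ly6c2 (0.54), Cd52 (0.53), Tspo (0.48), Ly6i (0.46), Ifi30 (0.46), Ly6e (0.45), Lst1 (0.45), S100a4 (0.44), Ms4a6c (0.42) and S100a6 (0.40). Ms4a4c and Ly6e were on the fixed list of other interferon-induced genes, and whether the rest respond to interferon was not tested. Ly6c2 and Plac8 are used as markers of recent monocyte origin. The 2 clusters pooled here differ in module level. Within the Ccl12 C1qa cluster alone (201 cells) r was 0.56 for Lst1, 0.55 for Ly6c2 and 0.54 for Plac8, but 0.25 for Ifi30, 0.24 for S100a6 and 0.21 for S100a4. Within the Spic Vcam1 cluster (49 cells) it ran from 0.10 for Ly6e and 0.16 for Tspo to 0.65 for S100a4. The median r over all ranked genes was close to 0. At the other end Slc40a1 (-0.56), Vcam1 (-0.51), Selenop (-0.49) and Mertk (-0.40) were among the 8 lowest, and 3 of these 4 are leading genes of the Spic Vcam1 cluster.

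The ligands, receptors and other genes of the pathway were read from fixed lists. Transcripts of the type I interferon genes on the list were hardly detected, and Ifna genes outside the list were not looked up. Of the 12 ligand genes, Ifnb1 had 11 UMIs in all, of which 6 were in Ccl12 C1qa macrophages, Ifnz had 1, and Ifna1, Ifna2, Ifna4, Ifna5, Ifnab, Ifne, Ifnk, Ifnl2 and Ifnl3 had none. A count of 0 is taken to allow up to 3 of the 8505574 UMIs, a rule apart from the exact intervals. Ifng, the type II ligand, had 82 UMIs and was at 212 CPM (164 to 269) in NK and ILC-like cells. No cluster was named plasmacytoid DC, but 4 markers of those cells were raised in the Cd209a Mgl2 DC-like cluster, which held 78 of the 85 UMIs of Siglech, and these cells were not separated here.

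Both chains of the type I receptor were detected in every cluster of at least 50 cells. Ifnar2 was highest in Spic Vcam1 macrophages, at 287 CPM (221 to 367), which had 5059.7 CPM of the module, and was at 175 CPM (149 to 205) in Ccl12 C1qa macrophages and 106 CPM (74 to 146) in Retnlg Cxcr2 neutrophils. Ifnar1 was at 82.5 CPM (64.6 to 104) in Ccl12 C1qa macrophages and 23.5 CPM (10.1 to 46.3) in Retnlg Cxcr2 neutrophils, the latter from 8 UMIs. Over the 6 receptor genes, 1 was at least 2-fold higher in each of Ccl12 C1qa macrophages (4.06% of all genes tested), monocytes (2.7%) and Retnlg Cxcr2 neutrophils (6.85%) and 2 in Spic Vcam1 macrophages (11.1%), and 1 was lower in Retnlg Cxcr2 neutrophils (29.1%). Ifngr1 was at 458 CPM (387 to 539) in NK and ILC-like cells and 359 CPM (323 to 398) in monocytes.

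Among the kinases and factors, Irf9, which binds DNA in that complex, was at 112 CPM (78.9 to 153) in Retnlg Cxcr2 neutrophils and 64.2 CPM (48.5 to 83.3) in Ccl12 C1qa macrophages. Jak1 was highest in NK and ILC-like cells, at 404 CPM (337 to 481). Of 6 brake genes, Socs1, an inhibitor of the Janus kinases, was at 369 CPM (299 to 450.0) in Trac Rag1 T lineage-like cells and 17.4 CPM (9.54 to 29.3) in Ltf Camp neutrophils, and Socs3 at 209.7 CPM (180.4 to 242) in Ccl12 C1qa macrophages.

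Upstream sensors and adaptors, 9 genes with at least 30 UMIs, had 4 higher and none lower in Spic Vcam1 macrophages (11.1% and 5.63% of all genes) and 1 higher and none lower in Ccl12 C1qa macrophages (4.06% and 3.38%). Unc93b1, which carries endosomal Toll-like receptors, was at 543 CPM (451 to 649) in Spic Vcam1 and 409 CPM (368 to 454) in Ccl12 C1qa macrophages. Tlr7, a receptor for single-stranded RNA, was at 97 CPM (78.6 to 118) in monocytes, 94.3 CPM (58.4 to 144) in Spic Vcam1 and 53.9 CPM (39.6 to 71.6) in Ccl12 C1qa macrophages.

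Interferon-induced genes outside the module were counted by the same rule. Of 51 tested, 14 were at least 2-fold higher and 2 lower in Ccl12 C1qa macrophages (4.06% and 3.38% of all genes). In Retnlg Cxcr2 neutrophils 14 were higher and 9 lower (6.85% and 29.1%) and in Ltf Camp neutrophils 8 and 11 (4.22% and 24.9%), so the lower counts there were not above the share of all genes. In Dntt Top2a thymocytes 1 was higher and 23 lower (17.4% and 11.2%). Ifitm1 was at 707 CPM (621 to 802) in Retnlg Cxcr2 neutrophils and 12.5 CPM (5.98 to 22.9) in Ltf Camp neutrophils. Slfn1 was at 681 CPM (596 to 774) and 264 CPM (229.8 to 302) in the same clusters, while Lgals3bp was at 488 CPM (443 to 537) in Ccl12 C1qa macrophages. In Ccr7 Fscn1 DCs Epsti1 was at 1097 CPM (988 to 1214), Psmb8, an immunoproteasome subunit gene, at 1227 CPM (1112 to 1350.4) and Ube2l6, the conjugating enzyme gene for Isg15, at 227 CPM (179 to 284). Ms4a4b was at 1855 CPM (1708 to 2011) in NK and ILC-like cells.

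Of 15 genes induced by interferon gamma, 7 were higher and none lower in Ccl12 C1qa macrophages (4.06% and 3.38% of all genes), and 1 was higher and 8 lower in Ltf Camp neutrophils (4.22% and 24.9%). Cxcl9, a chemokine gene that is a typical target of interferon gamma, was at 243 CPM (211 to 278) in Ccl12 C1qa macrophages, 4.49 CPM (0.114 to 25) in Spic Vcam1 macrophages and 17 CPM (9.9 to 27.2) in monocytes, with no UMI in Retnlg Cxcr2 neutrophils. Cxcl10 was at 332 CPM (295 to 373) in Ccl12 C1qa macrophages and 52.8 CPM (31.3 to 83.5) in Retnlg Cxcr2 neutrophils.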

How the data were processed

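Single-cell RNA was measured with 10x Genomics 3′ libraries of sorted mouse thymus cells. The values are UMI counts per gene and cell, as the authors deposited them, made with Cell Ranger 6.0.0 (2021) and 8.0.0 (2024) per the file headers, on mm10 per the submitters' processing notes. The 2021 library held 8534578 counts in 3214 barcodes. Barcodes were used if they had a minimum of 500 UMIs and 300 genes and mitochondrial UMIs no higher than 10%. Scrublet marked 3 cells, 0.0941%, where the expected rate was set to 6%, and whether the caller worked was not tested. Class levels, role sums, the spread and some of the ratios and member counts were therefore also computed without the 6% of cells with the highest scores. Other results, such as the role correlations and the genes most like the module, are given with all kept cells only.

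Cells were clustered with scanpy 1.11.5 and the Leiden method (2000 variable genes, 30 components, 15 neighbours, resolution 0.5) with the members and 117 other interferon genes left out. Clusters were named from fixed marker lists, and a difference from the labels may come from these rebuilt names. Levels are summed counts per 1e+06 UMIs, and ratios had 10 CPM added over genes with at least 30 UMIs. With 1 library carrying gene names there was no test. The ratio and thinning steps were tested on simulated data. Members described most fully were the 12 with the most UMIs and, per class, the 3 with the highest ratio among those with at least 20 UMIs, and the remaining members were named to account for all. The rule for the members reads symbols alone, but the module, lists and rules were chosen with earlier results of these data known. A gene of the fixed pathway lists is not reported here.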

Additional observations from a re-analysis of the deposited data

How the results depend on the processing

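Depth limits these values: the median kept cell had 2169 UMIs, and most members had fewer than 1 UMI per cell, so cells with none are not shown to lack a gene. Only 1 library carried gene names, so the spread between animals was not measured. No paired analysis was possible because the 2 libraries form 1 group and no test was run. The removal of high doublet scores with clusters kept, and the removal of S100a8 and S100a9 from the totals, were added after seeing the data. Of the results that answer a comparison, 90 recomputed values stayed within their interval or within 1.5 times their count and 58 moved; the cause was not tested. The order of classes changed in places: neutrophil-like passed monocyte-like cells with equal weight per cell or with S100a8 and S100a9 out of the totals, macrophage-like passed neutrophil-like cells (14309 and 14311 without the highest doublet scores, grouped anew and with clusters kept) under the stricter filter and both removals of high doublet scores, and without the 3 members with the most UMIs macrophage-like and neutrophil-like passed monocyte-like cells, with macrophage-like highest. Without those members NK and ILC-like passed T lineage-like cells.

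In CPM, with equal weight per cell, the module stood at 13027 (macrophage-like), 14603 (monocyte-like), 16516 (neutrophil-like), 7272 (conventional DC-like), 2390.0 (T lineage-like) and 1542 (NK and ILC-like), with ratios of 3.65 for the macrophage-like and 1.48 for the neutrophil-like pair. Without the highest doublet scores and with cells grouped anew it was 14609 (macrophage-like), 6551 (conventional DC-like), 1457 (T lineage-like), 1449 (NK and ILC-like) and 4259 (B lineage or plasma cell-like), the macrophage-like ratio was 3.50 and the top 10% of Ccl12 C1qa macrophages held 23.9%. With clusters kept the same classes were at 14367, 6805, 1662, 1433 and 4259, the ratio was 3.47 and the top 10% of Ccr7 Fscn1 DCs held 55.8%, with the thinning drawn anew.

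With interferon genes used in clustering, macrophage-like cells were at 13886 and DC-like cells at 6765, the neutrophil-like ratio was 1.69 and the Ccl12 C1qa top 10% held 24.5%. With no cell filter, monocyte-like cells were at 14551 and DC-like cells at 6685. At resolution 1.0, macrophage-like cells were at 13793 and DC-like cells at 6403, and the neutrophil-like ratio was 2.58. With the stricter filter (at least 1000 UMIs) the classes stood at 13948 (macrophage-like), 13318 (neutrophil-like), 7531 (DC-like), 2803 (T lineage-like) and 1349 (NK and ILC-like), the macrophage-like ratio was 2.83, the Ccl12 C1qa top 10% held 23.6% and 8 members were lower in Spic Vcam1 macrophages. This filter gave no value for the neutrophil-like pair, and grouping anew without high scores gave none for the T lineage-like pair.

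Without the 3 members with the most UMIs the sums were 4460.3 (macrophage-like), 2626 (monocyte-like), 3975 (neutrophil-like), 2282 (DC-like), 867 (T lineage-like), 1235 (NK and ILC-like) and 1369 (B lineage or plasma cell-like), the macrophage-like ratio was 3.73, and the top 10% held 30.6% in Ccl12 C1qa macrophages, 25.7% in Retnlg Cxcr2 neutrophils and 58.9% in Ccr7 Fscn1 DCs. Without the PYHIN members they were 12710.1 (macrophage-like), 14341 (monocyte-like), 6731 (DC-like), 2477 (T lineage-like), 1459.8 (NK and ILC-like) and 4345 (B lineage or plasma cell-like). With S100a8 and S100a9 out of the totals neutrophil-like cells were at 22610.5 and their ratio was 1.76.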
